A study of Acomys cahirinus and Mus musculus with 10 samples.

Results

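The 34 genes described here make the contractile machinery of mature, mostly fast, skeletal muscle fibres, and they were followed in the ear pinna of the African spiny mouse *Acomys cahirinus* (Acomys) and the CD1 laboratory mouse *Mus musculus* (Mus) after a 4-mm ear punch. They were taken from a list of mouse symbols by a rule that uses no measured value, and the list was drawn up with earlier results of these data known. All 34 were found among the 22346 Mus gene numbers that have a row in all 4 comparisons. In Acomys, which was measured against an assembly of its own transcripts, 32 of the 34 had an assembled component of their own among 640585 components. The remaining pair, Acta1 and Ckm, had no component that matched them better than a related gene.

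Ear tissue was taken from sexually mature females as a ring close to the healing margin, at D0 (uninjured) and at D5, D10, D15 and D20 after the punch, with 3 animals per species and day by the study's methods. The injured groups are labelled as regenerating tissue in Acomys and as fibrotic tissue in Mus, and no genotype or drug differed between groups within a species. The RNA came from whole tissue, so fewer muscle fibres in the ring and less muscle RNA per fibre cannot be told apart in any value below. The question was how each species' tissue changed from D0, and each later day was compared with D0 within a species.

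A skeletal muscle fibre shortens when thick filaments of myosin pull on thin filaments of actin within repeated units called sarcomeres. Troponin and tropomyosin on the thin filament respond to calcium, which is released from and pumped back into an internal store, and titin, nebulin and the proteins of the Z disc and M band hold the filaments in register. In the pinna of rodents a layer of such muscle lies on the dorsal side of the elastic cartilage.

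The values are normalized reads per library, all set on the scale of the D5 comparison of the species. At D0, where the same libraries enter 4 comparisons, the value of each library was recovered. These D0 libraries held 17947000, 15708200 and 14139100 reads in Acomys and 7360950, 6458190 and 5519930 in Mus. On later days the group mean was recovered for every member and the single libraries for some. The later libraries are called a, b and c within each day, and they carry no label beyond their group. The low values of the D15 group of Acomys showed 2 distinct libraries, a and b, where every other group showed 3. The size of 1 read in library b matched a library entered in 2 of the 3 columns, since features at large then lay at their group mean in both libraries (median log2 ratio of -0.02 in a and 0.01 in b). Read this way, each Acomys mean at D15 counts library b in 2 columns, and the calls of that day take 1 library for a pair of replicates. Calls are those of the authors' EBSeq comparisons, taken at a posterior probability of 0.95 or more. With 3 libraries against 3, the smallest two-sided p of an exact permutation test is 0.1, so no further test was run.

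The fast myosin heavy chain genes are so alike that short reads cannot always be assigned to 1 of them, which bears on every myosin value. The adult genes Myh2, Myh1 and Myh4 lie side by side on Mus chromosome 11 of GRCm38 (mm10), on the plus strand: Myh2 at chr11:67171027-67197517, Myh1 at chr11:67200052-67224575 and Myh4 at chr11:67238029-67260446. The first set of coding stretches shows where they differ most, with capitals at each base that differs from Mus Myh4, counted without gaps from base 1831 of its coding sequence.
Myh4: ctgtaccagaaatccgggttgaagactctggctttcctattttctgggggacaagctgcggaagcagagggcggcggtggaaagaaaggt
Myh1: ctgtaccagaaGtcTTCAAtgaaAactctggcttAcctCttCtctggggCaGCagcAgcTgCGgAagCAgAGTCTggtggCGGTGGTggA
Myh2: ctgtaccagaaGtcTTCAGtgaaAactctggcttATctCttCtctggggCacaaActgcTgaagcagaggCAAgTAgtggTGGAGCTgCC
Acomys component of Myh4: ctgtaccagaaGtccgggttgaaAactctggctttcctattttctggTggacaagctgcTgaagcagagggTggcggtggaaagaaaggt
Here Myh1 differed from Myh4 at 33 of 90 bases and Myh2 at 28, while the Acomys component differed at 5. Each Acomys stretch shown here and below is the closest among the transcripts of its component. The second set, from base 1561, shows a stretch that is identical in the 3 Mus genes.
Myh4: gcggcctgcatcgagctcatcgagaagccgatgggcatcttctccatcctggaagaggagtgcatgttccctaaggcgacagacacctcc
Myh1: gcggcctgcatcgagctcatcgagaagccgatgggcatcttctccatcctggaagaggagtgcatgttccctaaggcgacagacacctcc
Myh2: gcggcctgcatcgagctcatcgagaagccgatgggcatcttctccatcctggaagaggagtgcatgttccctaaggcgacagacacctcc
Acomys component of Myh4: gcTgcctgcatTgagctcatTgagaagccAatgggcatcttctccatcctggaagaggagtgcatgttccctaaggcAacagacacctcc
A 50-base read from this stretch fits all 3 genes. Of all 50-base windows, 27% of Myh1, 26.9% of Myh2 and 18.84% of Myh4 also occurred under another gene number of the Mus reference. The share was 3.656% for Klhl41, 1.84% for Acta1 and at most 0.4651% for each other member except Ttn. For Ttn it was 2.69%, mostly shared with a second gene number that was also named Ttn, and whether its reads were divided between both was not tested.

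Pvalb, the calcium-buffering parvalbumin of fast fibres, and Myom2, an M-band protein, mark the extremes of the mean log2 fold change in Acomys. Pvalb lies at chr15:78191114-78206400 on the minus strand and Myom2 at chr8:15057653-15133541 on the plus strand of GRCm38. The start of each coding sequence is shown to let a reader judge how firmly the Acomys component was matched, with capitals where it differs from Mus.
Pvalb: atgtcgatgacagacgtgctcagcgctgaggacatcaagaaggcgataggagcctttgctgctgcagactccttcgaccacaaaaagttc
Acomys component of Pvalb: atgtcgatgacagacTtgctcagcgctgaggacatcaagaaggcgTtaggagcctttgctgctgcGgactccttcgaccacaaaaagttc
Myom2: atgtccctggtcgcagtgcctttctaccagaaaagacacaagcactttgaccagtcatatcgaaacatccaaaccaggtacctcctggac
Acomys component of Myom2: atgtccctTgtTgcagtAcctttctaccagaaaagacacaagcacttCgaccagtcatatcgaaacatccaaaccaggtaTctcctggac
Over these 90 bases the Acomys components differed at 3 bases for Pvalb and at 5 for Myom2. Neither Acomys component had a second gene among its matches.

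In uninjured tissue the members were abundant. They made up 2.24%, 2.18% and 2.38% of the reads of the D0 libraries of Acomys and 4.57%, 4.12% and 5.05% in Mus. These shares are not alike in measure. Acomys counts 1 component for each of 32 genes, without Acta1 and Ckm and without further components, of which Ttn had 8 in all. Mus counts whole gene numbers for all 34. Per kilobase of sequence, the highest D0 level of normalized reads in both species was that of Tnnt3, the fast troponin T, with 6756 in Acomys and 5135 in Mus. In Acomys it was followed by Myh4 with 6560 and Tnni2 with 6092, and in Mus by Acta1, the skeletal actin, with 4082 and Tnni2 with 3586. The coefficient of variation of a member over the 3 libraries had a median of 7.74% (range 2.14 to 20.9%) in Acomys, where features with a mean of at least 100 had a median of 6.73%. In Mus it was 10.3% (3.15 to 32.3%) against 7.05%, and Myh4 was the most variable. The highest D0 library of Mus was 1.91 times the lowest for both Myh4 and Pvalb, 1.68 times for Actn2 and 1.62 times for Mybpc2.

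After injury nearly all members fell. In Mus 34 of 34 were called lower on each of the 4 days, where 13.6%, 14.1%, 12.5% and 11.9% of all features were called lower at D5, D10, D15 and D20. In Acomys 31, 29, 30 and 29 of 32 were called lower on these days, against 0.978%, 0.88%, 1.11% and 0.9% of all features. Among features with a mean of at least 10, the shares called lower were 19.7%, 19.9%, 18.1% and 17.3% in Mus and 4.36%, 3.6%, 4.37% and 4.15% in Acomys. No member was called higher on any day in either species. Higher calls were made for 16.5%, 15.1%, 13.2% and 12.3% of all features in Mus (24.3%, 21.7%, 19.2% and 17.9% at a mean of at least 10). In Acomys they were made for 1.78%, 1.28%, 1.33% and 0.948% (8.09%, 5.48%, 5.58% and 4.31%).

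The median log2 fold change of the members was -2.83, -2.77, -3.06 and -3.07 in Mus at D5, D10, D15 and D20. In Acomys it was -2.96, -2.44, -2.21 and -3.20. The median over all features with a mean of at least 10 was between -0.02 and 0.02 in all 8 comparisons. The summed reads of the members stood at 13.9%, 13.9%, 11.7% and 11.3% of D0 in Mus. In Acomys they stood at 14.2%, 17.9%, 19.5% and 9.71%, so the sum was highest at D15 and lowest at D20 among the injured groups. These sums mainly follow Ttn, the gene of titin. It held 180724 of the 313789 summed normalized reads at D0 in Acomys, and most of the sum in Mus. In Acomys Ttn alone stood at 13.1%, 16.5%, 18.4% and 8.57% of D0. The map of fold changes shows the fall in every role.

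**Figure D1:**
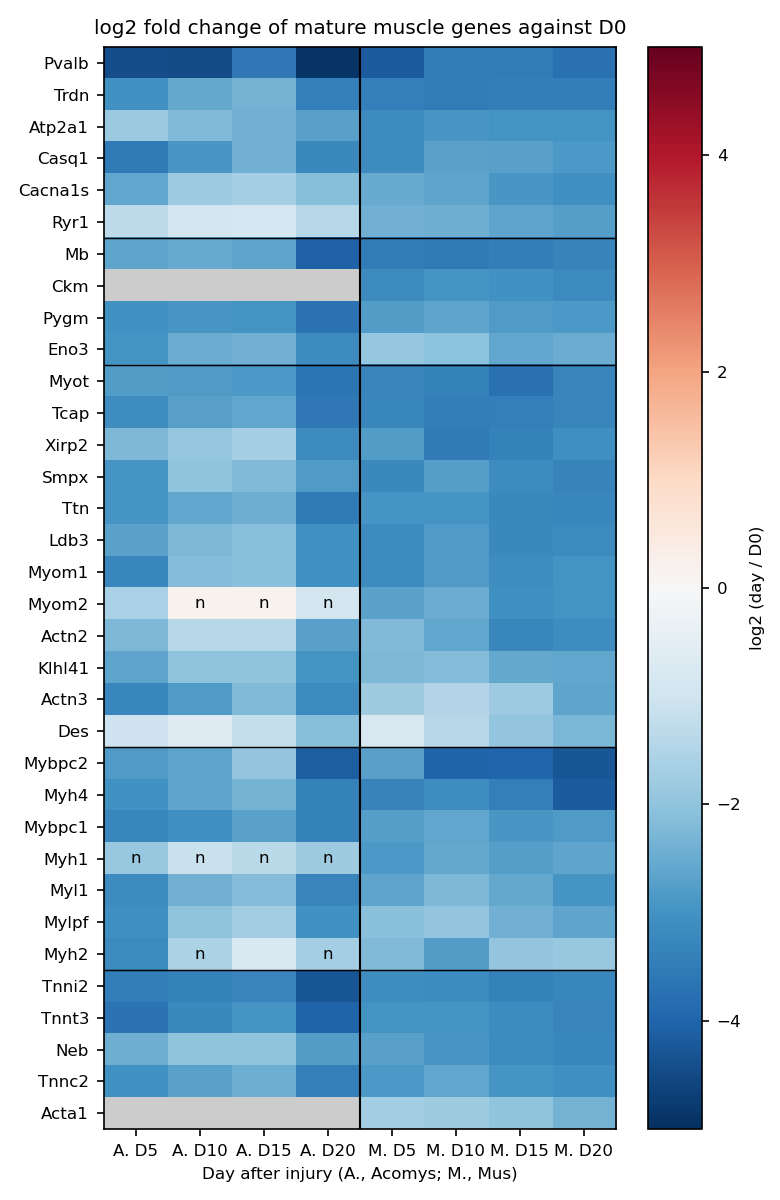
Log2 fold change of each member (rows, grouped by role and separated by lines: calcium handling, energy, scaffold, thick filament, thin filament) at D5, D10, D15 and D20 against D0 in Acomys (A.) and Mus (M.). Blue is lower than D0, grey marks a member without an Acomys component, and n marks a value that was not called. All 34 rows are blue on all days in Mus, and Myom2 stands out in Acomys with values of 0.17 and 0.16 at D10 and D15.

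The day mean lay below all 3 D0 libraries for 34 of 34 members on each day in Mus, where this held for 42.4%, 41.3%, 41.4% and 40.3% of features with a D0 mean of at least 10. In Acomys it held for 32, 31, 31 and 32 of 32 members, against 39.4%, 36.7%, 38.4% and 39.2% of features. Myom2 was the member above at least 1 D0 library at D10 and D15.

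Of the thick filament genes, Myh4 encodes the myosin heavy chain of the fastest fibres, and its D0 level per kilobase was the highest of this role in Acomys. There its D0 libraries held 33093, 31983 and 34670 normalized reads, and the later means were 4049, 5336, 6405 and 3214 at D5, D10, D15 and D20. The log2 fold changes were -3.04, -2.64, -2.38 and -3.37, all called. The same component was the best match of Myh1 and Myh2 in Acomys, at bit scores of 6375 and 5279 beside 6623 for Myh4. Whether its level holds reads of these genes was not tested. In Mus the D0 libraries of Myh4 held 20593, 10782 and 14567, and the later means were 1509, 1782, 1435 and 859. Its log2 fold changes of -3.34, -3.10, -3.42 and -4.16 were called, and each later mean lay below the lowest D0 library.

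Myh1, the heavy chain of another fast fibre type, had D0 libraries in Mus of 18503, 20515 and 21086 and later means of 2731, 3390, 2972 and 3192. The log2 fold changes were -2.88, -2.56, -2.75 and -2.65. In Acomys Myh1 was represented by a short component of 375 bases with D0 libraries of 30.9, 26.3 and 36.5, while its best match went to the Myh4 component. Its means of 8.29, 14.4, 12.4 and 9.04 on the later days were not called on any of them, at log2 fold changes of -1.91, -1.11, -1.34 and -1.79. Every library solved for it was below the D0 libraries. At D5 its libraries held 8.12, 9.16 and 7.60 normalized reads, and at D20 they held 4.36, 8.20 and 14.6.

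Myh2, a heavy chain of fast oxidative fibres, changed by -2.22, -2.78, -1.99 and -1.90 on the log2 scale in Mus, and the value at D20 was the smallest fall of any member on that day in this species, where the D0 libraries held 1932, 1591 and 2379. In Acomys its component of 342 bases had D0 libraries of 42.4, 38.5 and 49.4 and was called lower at D5 and D15, with log2 fold changes of -3.17 and -0.76. The best match of Myh2 likewise went to the Myh4 component. This short component also matched Myh8, at a bit score of 325 beside 448, and whether it holds reads of both was not tested. At D5 its libraries held 3.04, 10.2 and 1.27 normalized reads, and without library b the value was -4.33. The values at D10 and D20 were -1.57 and -1.69 without a call. Its libraries a and b at D15 held 36.6 and 20.2, and with each counted once the value was -0.61. The reads behind both short components are few, so their levels are less precise than those of the other members.

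The light chains Myl1 and Mylpf, which sit on the myosin neck, and the myosin-binding proteins Mybpc1 and Mybpc2 were called lower on all days in both species. Myl1 changed by -2.62, -2.24, -2.55 and -2.94 on the log2 scale in Mus and by -3.16, -2.41, -2.15 and -3.30 in Acomys. Mylpf had the highest D0 level per kilobase of this role in Mus, 3418 normalized reads, from D0 libraries of 2948, 2220 and 2574. Its log2 fold changes were -2.08, -1.98, -2.42 and -2.64 in Mus and -3.07, -2.01, -1.72 and -3.01 in Acomys. Mybpc1, the slow-type binding protein, lay between -2.61 and -2.91 in Mus and between -2.67 and -3.39 in Acomys.

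Mybpc2, the fast-type binding protein, had the deepest fall of all members in Mus at D10, D15 and D20. At D0 the libraries held 784, 483 and 509 normalized reads. They were followed by 108, 68.1 and 93.8 at D5, by 44.0, 34.6 and 33.1 at D10, by 3.92, 49.4 and 60.1 at D15 and by 14.7, 66.5 and 11.1 at D20. No later library overlapped with D0, and the log2 fold changes were -2.72, -3.99, -3.97 and -4.27. Without library b the value at D20 was -5.52. In Acomys the D0 libraries of Mybpc2 held 360, 367 and 460, and the libraries at D20 held 12.2, 19.5 and 37.1, for a log2 fold change of -4.11 at that day after -2.83, -2.65 and -1.99.

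The thin filament genes fell together. Tnnt3 binds tropomyosin, and its D0 libraries of 10142, 8260 and 9364 normalized reads in Acomys were followed by means of 721, 981, 1191 and 580. In Mus its D0 libraries held 6152, 5169 and 5316 and the means were 703, 713, 627 and 570. The log2 fold changes ran from -2.96 to -4.00 in Acomys and from -2.96 to -3.28 in Mus, so no later mean approached D0.

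Tnni2, the inhibitory troponin of fast fibres, changed by -3.47, -3.39, -3.31 and -4.28 in Acomys and by -3.12, -3.16, -3.39 and -3.25 in Mus on the log2 scale. Tnnc2, the calcium-binding troponin, changed by -3.02, -2.67, -2.43 and -3.43 in Acomys and by -2.89, -2.61, -2.96 and -3.07 in Mus. Neb encodes nebulin, which runs along the thin filament. Its D0 libraries held 24614, 24974 and 27065 in Mus, and its log2 fold changes there were -2.73, -2.92, -3.14 and -3.27. In Acomys its D0 libraries held 13884, 12578 and 14163 and its changes were -2.43, -2.03, -2.02 and -2.79.

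Acta1 encodes the actin of the skeletal thin filament. In Mus its D0 libraries held 6818, 5679 and 6741, and the means of 1926, 1878, 1592 and 1252 gave log2 fold changes of -1.74, -1.77, -2.01 and -2.36, the smallest falls of the thin filament genes. In Acomys the best component for Acta1 matched the cytoplasmic actin Actg1 better and changed by 1.13, 0.71, 0.38 and -0.02, and it is not counted as a member.

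Among the scaffold genes, Ttn encodes titin, the spring that links the Z disc to the M band, and it had the highest D0 level per kilobase of this role in both species, 2647 in Acomys and 1920 in Mus. Its D0 libraries held 178352, 173351 and 190468 normalized reads in Acomys, with later means of 23678, 29873, 33201 and 15479. In Mus they held 187791, 171426 and 226466, with later means of 25384, 25217, 20689 and 20569. The log2 fold changes were -2.93, -2.60, -2.44 and -3.55 in Acomys and -2.94, -2.95, -3.24 and -3.25 in Mus.

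Myom2 differed from the other members in Acomys. Its D0 libraries held 302, 350 and 453 normalized reads, and the day means were 121, 416, 412 and 193 at D5, D10, D15 and D20. It was called lower at D5 with a log2 fold change of -1.61, and not called at D10, D15 and D20 with 0.17, 0.16 and -0.93. The libraries held 131, 131 and 100 at D5, 423 and 406 at D15, and 138, 179 and 262 at D20, so the D15 libraries lay within the range of D0 while those of D5 and D20 lay below it.

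In Mus the D0 libraries of Myom2 held 1535, 1128 and 1504, with later means of 216, 246, 165 and 175 and called log2 fold changes of -2.69, -2.50, -3.08 and -2.99. Its neighbour in the M band, Myom1, changed in both species, by -3.27, -2.17, -2.10 and -3.03 on the log2 scale in Acomys and by -3.14, -2.82, -3.09 and -2.98 in Mus. Across D0 in Acomys, the libraries of Myom2 had the widest spread of any member there, with a coefficient of variation of 20.9%.

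Des encodes desmin, the intermediate filament that ties sarcomeres to each other and that is also made by smooth muscle. It had the smallest fall of all members at D5 in both species, with log2 fold changes of -1.02 in Acomys and -0.78 in Mus, and both were called. At D10 its value of -1.41 was again the smallest fall in Mus. Its D0 libraries held 3471, 3398 and 3715 in Acomys and 1912, 1790 and 1734 in Mus. The later means were 1736, 2228, 1551 and 804 in Acomys and 1052, 681, 465 and 373 in Mus, where each day was lower than the one before.

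The Z-disc genes were called lower on all days in both species. Tcap, the titin cap, had D0 libraries of 1944, 1746 and 2110 in Acomys and 1300, 1220 and 1261 in Mus, and its log2 fold changes were -3.11, -2.72, -2.61 and -3.56 in Acomys and -3.28, -3.45, -3.41 and -3.31 in Mus. The cross-linkers Actn2 and Actn3 changed by -2.25, -1.43, -1.43 and -2.72, and by -3.27, -2.82, -2.22 and -3.20, in Acomys in that order. In Mus Actn2 changed by -2.21, -2.61, -3.27 and -3.11, and Actn3 by -1.76, -1.46, -1.82 and -2.62, the value at D15 being the smallest fall of all members there. The D20 libraries of Actn3 held 20.7, 134 and 24.1 normalized reads, and without library b its value was -4.03.

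Myot, Ldb3 and the adaptor Xirp2 were lower on all days in both species, with log2 fold changes from -1.67 (Xirp2 at D15) to -3.67 (Myot at D20) in Acomys and from -2.78 (Xirp2 at D5) to -3.71 (Myot at D15) in Mus. The same held for Smpx, a small muscle protein, and Klhl41, which helps to stabilise nebulin, from -2.00 to -3.01 in Acomys and from -2.15 to -3.34 in Mus. All of these values were called. Klhl41 had 3 Acomys components, and over their sum its log2 fold changes were -1.77, -1.50, -1.50 and -2.00 in place of -2.64, -2.00, -2.00 and -3.01.

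Of the calcium genes in Acomys, Pvalb fell furthest on each day. Its D0 libraries held 3307, 3267 and 3732 normalized reads in Acomys, followed by 132, 153 and 186 at D5, by 128, 192 and 141 at D10 and by 63.7, 98.4 and 181 at D20. The log2 fold changes of -4.45, -4.48, -3.57 and -4.91 were the deepest of any member there on each day. In Mus its D0 libraries held 1580, 825 and 1282, the libraries at D5 held 81.8, 48.2 and 78.7, and those at D20 held 26.7, 212 and 37.2. The changes were -4.14, -3.48, -3.48 and -3.74, the deepest of any member at D5. Without library b the value at D20 was -5.27.

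Atp2a1, the pump that returns calcium to its store in fast fibres, had the highest D0 level per kilobase of the calcium genes in Mus, 3325, where in Acomys Pvalb did with 5351. Its D0 libraries held 11415, 11647 and 13389 in Acomys, with means of 3372, 2612, 2314 and 1847 that gave log2 fold changes of -1.85, -2.22, -2.39 and -2.72. In Mus they held 12918, 10436 and 10956, and the changes of -3.16, -2.93, -3.00 and -2.97 were nearly level from day to day. The Acomys component of Atp2a1 also matched Atp2a2, at a bit score of 2240 beside 3049, and whether it holds reads of both was not tested.

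Ryr1, the release channel of the store, had log2 fold changes of -1.32, -0.92, -0.86 and -1.43 in Acomys, and of the members called at D15 only Myh2 changed less. Its component also matched Chd7, a chromatin remodeller, and whether its level holds reads of both was not tested. In Mus Ryr1 changed by -2.41, -2.44, -2.63 and -2.77 on the log2 scale. The voltage sensor Cacna1s, which opens it, changed by -2.60, -1.81, -1.65 and -2.14 in Acomys and by -2.51, -2.64, -2.90 and -3.07 in Mus. Its Acomys component also matched Cacna1c, at a bit score of 2565 beside 3168, and whether it holds reads of both was not tested. Casq1, which holds calcium in the store, and Trdn, which anchors it, lay between -2.35 and -3.52 in Acomys and between -2.68 and -3.48 in Mus.

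The energy genes were lower in both species on all days. Mb, the oxygen store myoglobin, had D0 libraries of 5740, 5960 and 7726 normalized reads in Acomys, per kilobase the highest of this role there, and means of 1054, 1130, 1055 and 395. Its log2 fold changes were -2.62, -2.52, -2.62 and -4.04, against -3.50, -3.54, -3.47 and -3.33 in Mus. Pygm, which breaks down glycogen, changed by -3.04, -2.92, -3.00 and -3.70 in Acomys and by -2.79, -2.65, -2.81 and -2.88 in Mus, and Eno3, a glycolytic enolase, by -2.97, -2.48, -2.42 and -3.13 and by -1.95, -2.04, -2.60 and -2.49.

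Ckm, the muscle creatine kinase, stood at 2410 normalized reads per kilobase at D0 in Mus, next to 2396 for Mb, with D0 libraries of 4228, 3022 and 2981 and means of 379, 438, 416 and 371. Its log2 fold changes were -3.17, -2.96, -3.04 and -3.20. The best Acomys component for Ckm matched the brain-type kinase Ckb slightly better and changed by -3.19, -3.16, -2.96 and -3.38. It is not counted as a member, and whether it holds reads of Ckm was not tested.

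The single libraries of the later days could be solved for 90 of 264 member values. In 89 of the 90 all libraries of the day lay below all D0 libraries, the exception being Myom2 in Acomys at D15. Of these 90 values, 77 had a day mean of 10 to 300 normalized reads, and the others ran from 4.83 to 1551. Fewer sets of reads can fit a low mean, so the 90 are not an even sample of the 264. Des was solved in Acomys at D15 alone and on no day in Mus, and Myom2 in Acomys was not solved at D10. The background was taken from features with a day mean of 10 to 300 alone, where the share of solved features with all libraries below D0 was 21.2%, 21.4%, 25.3% and 18.8% at D5, D10, D15 and D20 in Acomys and 33.8%, 32.4%, 27.4% and 28.8% in Mus. The plot of libraries shows the gap.

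**Figure D2:**
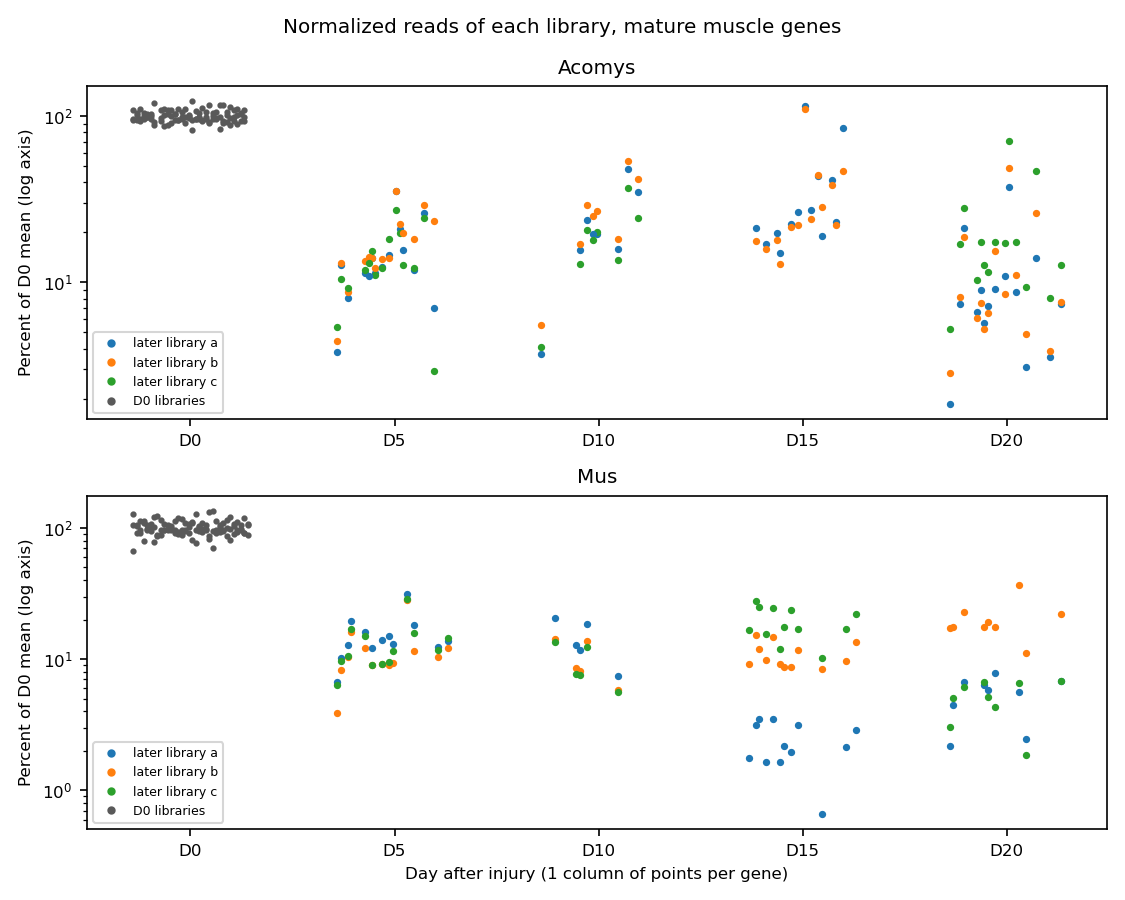
Normalized reads of each library in percent of the member's D0 mean, on a log axis, for D0 (grey) and for the member values solved on later days (blue, orange and green for libraries a, b and c), with a column of points per gene. At D15 in Mus library a lies below b and c in all 12 members solved, and at D20 library b lies above the others in all 9.

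The libraries of a later group were not alike in muscle reads. At D15 in Mus, library a was the lowest in 12 of 12 members solved, at a median of 21.9% of the group mean, and library c the highest in 12 of 12, at 175%. At D20, library b was the highest in 9 of 9, at a median of 192%, with library a at 56.6% and library c at 51.3%. In Acomys the spread was smaller, and at D20 library c was the highest in 15 of 15 at a median of 141%. Over the other features solved in these groups, the median log2 ratio of a library to its group mean lay between -0.06 and 0.02. Other lists were ordered in part like the members. Regulators of muscle formation and embryonic myosins in Mus were lowest in a in 5 of 6 and highest in c in 5 of 6 at D15. They were highest in b in 4 of 4 at D20. At D15 in Mus library a was also the lowest in 5 of 5 slow fibre genes and 3 of 3 cartilage markers solved, the latter summing to 274, 618 and 481 normalized reads in a, b and c. At D20 library b was the highest in 2 of 2 cartilage markers, at sums of 115, 138 and 126, and slow fibre genes were highest in it in 3 of 5. Smooth muscle markers went the other way, with library a the highest in 2 of 3 at D15 (sums of 79.2, 47.6 and 49.2) and library b the lowest in 3 of 3 at D20, and heart muscle markers at D15 were highest in a in 3 of 6 and lowest in a in 3 of 6. In Acomys at D20 library c was the highest in 4 of 4 slow fibre genes and 5 of 7 of the muscle formation list. Library b was the highest there in 3 of 3 cartilage markers. The part of these tissues in the spread of the members was not tested.

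The troponin Tnni2 shows the same order at D15 in Mus, with 50.9, 232 and 403 normalized reads in libraries a, b and c against D0 libraries of 2553, 2137 and 2475. The calcium channel Cacna1s held 36.8, 124 and 260 at D15 and 70.6, 239 and 64.3 at D20, against D0 libraries of 1102, 1022 and 1017. For the 12 members solved at D15 and the 9 at D20 in Mus, the later means stand for libraries that differ several-fold among themselves, and all of these libraries lay below D0. Without library c at D15 the median log2 fold change of the 12 was -4.10 in place of -3.31, and without library b at D20 that of the 9 was -4.04 in place of -3.31. Without library a these medians were -2.85 and -3.04, and without library c at D20 that of the 9 was -2.99. At D20 without library b the others of the 9 ranged from -3.87 for Tnnc2 to -4.39 for Trdn, beside Mybpc2, Pvalb and Actn3 above. At D15 without library c, the 9 members that moved by more than 1.5 times ranged from -3.45 for Casq1 to -4.22 for Smpx. The libraries of the other members on these days were not solved.

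The fall of the members was compared between species, although each was normalized on its own and the difference was not tested. Averaged over the 4 days, the log2 fold change in Acomys minus that in Mus had a median of 0.37 over the 32 members present in both, from -0.96 for Actn3 to 2.26 for Myom2. It was above 0 in 20 members and below 0 in 12. Among the 20, Myh1 (1.17) and Myh2 (0.43) rest on the short Acomys components described above. The Acomys components of Ryr1 (1.43), Cacna1s (0.73) and Atp2a1 (0.72) also matched other genes. Of the 12 below 0, Klhl41 stood at -0.02 and would lie above 0 over the sum of its Acomys components. By day the median difference was -0.10, 0.60, 0.82 and -0.18 in the order of the days, and Acomys had the higher value in 14, 21, 29 and 14 of the 32. Single libraries shift these values for the members solved. Without library c at D15 the Mus median of 12 was -4.10 in place of -3.31, and without library a it was -2.85. The order of the species turned without c for Pygm (-3.46, beside -3.00 in Acomys). It turned without a for Casq1 (-2.22, beside -2.40) and Tnni2 (-2.91, beside -3.31). Without library b at D20 the Mus median of 9 was -4.04 in place of -3.31, and without a or c it was -3.04 or -2.99. Leaving out b turned the order for Pvalb (-5.27 in place of -3.74, beside -4.91 in Acomys), Tnnc2, Tcap, Myot and Actn3. Leaving out a or c turned it for Mybpc2 (-3.93 or -3.87, beside -4.11 in Acomys). Without Acomys library c at D20 the Acomys median of 15 members was -3.68 in place of -3.21, and without a or b it was -2.99 or -3.04.

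**Figure D3:**
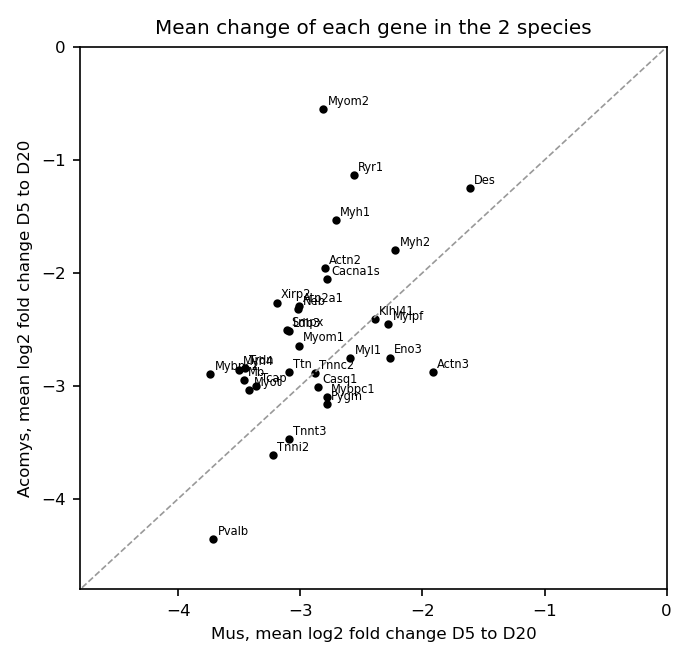
The log2 fold change of each member, averaged over the 4 later days, in Mus (horizontal axis) and Acomys (vertical axis), with the dashed line at equal change. Myom2 and Ryr1 lie furthest above the line and Actn3 furthest below it. The Acomys component of Ryr1 also matched Chd7.

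Other genes of fast and shared skeletal muscle, listed apart from the members, mostly fell with them. In Acomys 35, 33, 36 and 40 of 42 were called lower at D5, D10, D15 and D20, with a median log2 fold change of -2.43, -2.43, -2.40 and -3.21. In Mus 38, 38, 40 and 39 of 40 were called lower, with medians of -2.70, -2.59, -2.96 and -2.95. Their libraries were ordered as those of the members: at D15 in Mus library a was the lowest in 20 of 20 solved, and at D20 library b the highest in 24 of 25. Among the exceptions in Acomys, Cav3 was not called on any day, at 0.12, 0.66, 0.14 and -0.22. Lmod2 changed there by -0.31, -0.31, -0.25 and -0.47, against -3.00, -2.98, -2.93 and -3.16 in Mus. Myom3 (-1.67, -0.43, -0.40 and -1.76) and Synpo2l (-1.14, -0.002, -0.13 and -1.24) stood nearest D0 at D10 and D15 in Acomys, as Myom2 did.

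Genes of slow fibres were called in both directions. Of 8 with a value in each species, 4, 2, 2 and 5 were called lower in Acomys and 4, 4, 4 and 5 in Mus over the 4 days, with 2, 2, 3 and 0 and 3, 2, 1 and 0 called higher. These 8 were not the same genes, since Myl3 and Tpm3 had a value in Acomys alone and Tnnt1 and Tnni1 in Mus alone. Tnnt1 was called lower on all days. The higher counts in Mus are near the shares called higher there at a mean of 10 or more, 24.3%, 21.7%, 19.2% and 17.9%. The higher calls in Acomys were those of Tpm3 and Atp2a2 at D5 and D10, joined by Casq2 at D15. In Mus they were those of Casq2 at D5, D10 and D15, Tnnc1 at D5 and D10, and Atp2a2 at D5. The slow myosin Myh7 changed by -2.50, -1.82, -1.86 and -3.24 on the log2 scale in Acomys and by -3.04, -2.58, -3.02 and -2.29 in Mus, all called. Myl2 was also called lower on all days, from -3.42 to -5.90 in Acomys and from -3.89 to -5.55 in Mus. Atp2a2, a calcium pump that many cell types make, changed by 1.1, 0.61, 0.32 and 0.17 on the log2 scale in Acomys, of which the first 3 were called, and by 0.42, 0.10, 0.02 and -0.20 in Mus, of which the first and the last were called.

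Regulators of muscle formation and myosins of developing muscle were also called in both directions. Of 10 with a value in each species, 3, 3, 1 and 4 were called lower in Acomys and 2, 4, 5 and 6 in Mus at D5, D10, D15 and D20, while 1, 3, 3 and 2, and 2, 4, 0 and 0, were called higher. These 10 were not all the same genes, since Mymk had a value in Acomys alone and Chrng in Mus alone. In Mus at D5 both counts are near the 19.7% called lower and 24.3% called higher among features with a mean of at least 10. Mef2c, a factor that activates muscle genes, was called lower on all days in both species, with log2 fold changes of -1.46, -1.16, -1.18 and -1.75 in Acomys and -1.38, -1.16, -1.33 and -1.41 in Mus. Myf6, a regulator of differentiated fibres, changed by -2.30, -1.37, -1.88 and -2.42 in Acomys, called except at D15, and by -2.07, -1.99, -2.64 and -3.28 in Mus, all called. Myog, a regulator of muscle differentiation, had a D0 mean of 4.54 normalized reads in Acomys and means of 34.1, 99.2, 79.7 and 23.3 on the later days, and it was called higher at D5, D10 and D15. In Mus its mean was 8.27 at D0 and 90.3, 57.7, 23.3 and 9.59 later, with calls at D5 and D10. Myh3, the embryonic myosin, rose in Acomys from 6.51 at D0 to 248, 321 and 77.4 at D10, D15 and D20, while in Mus it was 1702 at D0 and 818, 760, 261 and 206 later, called lower from D10 on. Myh8, the perinatal myosin, took another course, with log2 fold changes of -3.39, -1.34, -0.45 and -1.16 in Acomys, called lower except at D15, and of 0.24, 1.37, 0.59 and -0.54 in Mus, called higher at D10 and lower at D20. Mymk, which lets myoblasts fuse, rose in Acomys from 3.70 to 71.3, 47.6 and 26.6 at D10, D15 and D20.

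**Figure D4:**
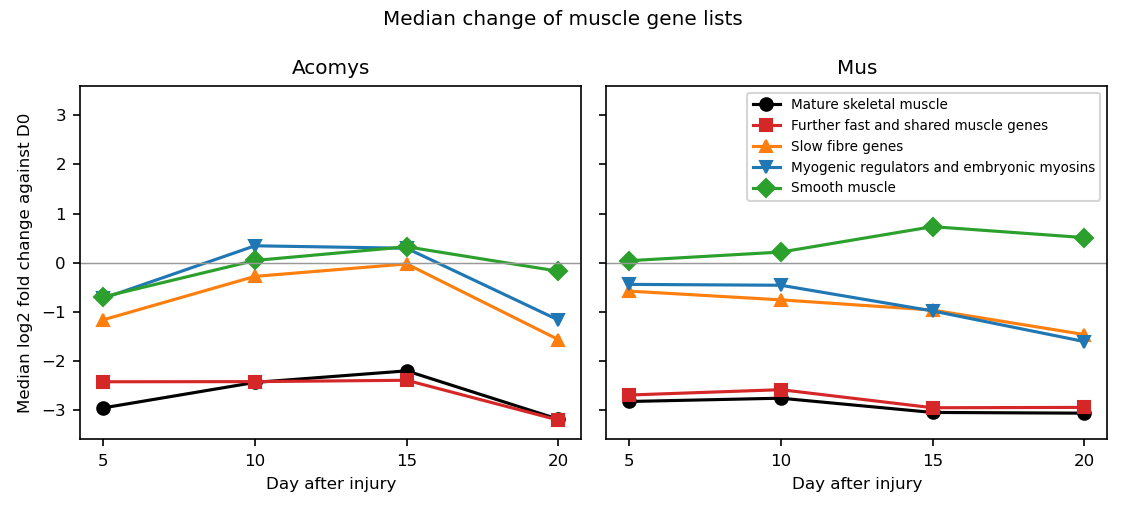
Median log2 fold change against D0 of 5 gene lists at D5, D10, D15 and D20 in both species. The mature genes and the further fast muscle genes run together between -2.2 and -3.2, and the lists of slow fibres, muscle formation and smooth muscle lie above them.

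Markers of other tissues moved with the days as well. Of 7 macrophage markers in Acomys 6, 5, 4 and 0 were called higher, and of 6 in Mus 6, 5, 6 and 6. The summed fibroblast markers stood at 77.2%, 274%, 355% and 305% of D0 in Acomys and at 420%, 860%, 926% and 910% in Mus. In Acomys 2, 5, 6 and 6 of 7 were called higher and 2, 1, 1 and 0 lower. In Mus 5 of 6 were called higher and 0 lower on each day. These sums are not alike, since Postn held 47847 of 92716 normalized reads at D0 in Acomys and 4708 of 54730 in Mus. Pdgfra had a value in Acomys alone. The summed cartilage markers stood at 64.8%, 98.4%, 94.7% and 79.9% of D0 in Acomys and at 56.1%, 94.8%, 97.0% and 120% in Mus. In Acomys at D10 and D15 the sum stood near D0, while 9 and 8 of 11 single cartilage markers lay below their D0 level. Over the 4 days 8, 7, 4 and 5 of 11 were called lower there and 2, 2, 2 and 4 higher. Their median log2 fold change was -1.10, -0.96, -0.76 and -0.73. Col2a1, the main cartilage collagen, went from 597 normalized reads at D0 to 3138 at D10. In Mus 7, 3, 3 and 2 of 11 were called lower and 3, 3, 2 and 6 higher. The median there was -1.19, 0.01, 0.03 and 0.78. Apart from the 7 lower at D5 and the 6 higher at D20, the Mus counts are near the shares of features called. At a mean of at least 10 these shares lay between 17.3% and 24.3%. Of the cartilage markers, Sox9 had a value in Acomys alone and Matn1 in Mus alone. Of 7 smooth muscle markers 3, 2, 2 and 2 were called lower in Acomys, and 1 of 7 on each day in Mus, while 0, 2, 3 and 2, and 2, 3, 3 and 1, were called higher. The 1 of 7 in Mus is near the 11.9% to 14.1% of all features called lower there. Of these markers, Synm had a value in Acomys alone and Acta2 in Mus alone. The summed basal epidermal markers stood at 198%, 92.5%, 74.9% and 70.9% of D0 in Acomys and at 170%, 94.2%, 78.9% and 72.4% in Mus. In Mus 4, 4, 4 and 3 of 6 of these were called lower and 2, 0, 0 and 0 higher, with a median log2 fold change of -0.52, -1.02, -1.07 and -0.53, and the sum at D5 held 70354 normalized reads of the keratin Krt14. In Acomys 1, 2, 4 and 4 of 7 were called lower and 5, 0, 1 and 0 higher. The epidermal sums hold different genes, since Krt5 had a value in Mus alone and Itga6 and Itgb4 in Acomys alone. Krt15 held 8874 of 24134 normalized reads at D0 in Acomys and 3410 of 69685 in Mus. At D5 Krt15 changed by 1.29 on the log2 scale in Acomys and by -2.11 in Mus. The genes listed as heart muscle markers were low, with a summed D0 level of 99.3 normalized reads in Acomys and 166 in Mus. Whether skeletal muscle made these genes was not tested. Their sum stood at 119%, 403%, 418% and 178% of D0 in Acomys and at 317%, 327%, 139% and 60.8% in Mus. In Acomys 1, 4, 4 and 1 of 5 were called higher, with 1 lower at D5. In Mus 2, 2, 1 and 0 of 7 were called higher, with 2 lower at D20. At a mean of at least 10 in Mus, 24.3%, 21.7% and 19.2% of features were called higher at D5, D10 and D15. At D20 17.3% were called lower, so the Mus counts are near these shares. The part of these cells in the fall of the members was not tested.

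Over the 8 comparisons, the 5 genes whose log2 fold changes followed the members' median most closely among 10776 pairs of genes were Fhl3, Smyd1, Akap6, Bin1 and Hspb2, with Pearson's r of 0.944, 0.939, 0.934, 0.921 and 0.913. These are descriptions over 8 points that share D0 libraries within a species. Smyd1 had a mean log2 fold change of -2.11 in Acomys and -2.49 in Mus, while Fhl3 moved by only -0.11 and -0.37.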

How the data were processed

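Per the labels, total RNA from ear tissue was made into directional libraries after ribosomal RNA reduction. By the study's methods, the authors assembled Acomys transcripts with Trinity, estimated reads with RSEM and Bowtie against this assembly or the mm10 transcripts, and compared each day with D0 by EBSeq. Each deposited table holds a pair of fold changes, as ratios with D0 above the later day, and a posterior probability, a score from 0 to 1. The deposited BLASTN table gives identity in percent, and its alignment lengths and bit scores were used as deposited. The fold changes and posterior probabilities are the authors' own comparisons; the means, log2 values and libraries were computed from them here.

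Group means were solved from the 2 fold changes of each row, with 0.01 added to means before the log2 ratio. D0 libraries were solved from the 4 tables of a species: 640477 of 640585 Acomys rows and 22210 of 22346 Mus rows were recovered with an error under 0.01 read, and 81.61% and 44.31% of those with a mean over 10 were whole in all libraries, the rest being fractional estimates. Later libraries were kept where exactly 1 set of reads gave the mean and fewer than 0.01 sets were expected by count. A mean of 10 over 3 libraries is 30 reads, a counting error of 18.3%.

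Mus gene numbers were named by order along GRCm38 after matching transcripts with minimap2 2.31-r1302. Of 398 known names held out, 337 were placed right, 2 wrong and 59 not placed, but the settings were tuned over several versions with these names in view, so the share is not independent. The number of Pvalb had a probability of 0.898, under the 0.9 asked of the held-out names and of genes outside the members. Pvalb was kept as a listed member. Each Acomys component went to the gene of its top bit score under 99% identity. Python 3.11.15, NumPy 2.4.6 and pandas 2.3.3 were used, and the recovery was tested on simulated tables. All members are accounted for by symbol, and those with the highest D0 level in a role or the extreme fold change on a day are given in full. The members and lists were chosen with earlier results of these data known. Promoter motifs were not searched.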

Additional observations from a re-analysis of the deposited data

How the results depend on the processing

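Counts of members called lower stayed within 1.5 times at a posterior probability of 0.99, with a least mean of 10, with the top component at any identity, and with the best component of each gene even where another gene matched it better. The last of these, chosen after seeing the data, moved the Acomys median to -2.36 at D15 and -3.25 at D20. Leaving out each recovered D0 library in turn, also chosen after seeing the data, gave medians from -3.23 to -2.12 and a median difference between species from 0.34 to 0.41. Sums over components moved 27 values of single members by more than their spread, of which those of Klhl41 in Acomys at D5 (-2.64 to -1.77) and D20 (-3.01 to -2.00) moved by more than 1.5 times, and a pseudocount of 1 moved 1 (Myh2 in Acomys at D5, -2.93). No fold change or median changed direction, while the species difference of Klhl41, near 0, turned above 0 over the sum of its components. No paired analysis was possible because the libraries carry no replicate numbers. Each later library was left out in turn for the 90 member values with solved libraries, chosen after seeing the data. Values moved by more than 1.5 times in 9 of 12 members in Mus at D15 without library c (median -3.31 to -4.10), in 9 of 9 at D20 without library b (-3.31 to -4.04) and in 1 of 15 in Acomys at D5 without library b, which was Myh2 (-3.17 to -4.33). The other libraries moved no solved value by more than 1.5 times. With each distinct library of Acomys at D15 counted once, the median of the 13 solved members was -2.08 in place of -2.09. The calls could not be recomputed in this way, since most member values have no solved libraries.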
